A study of Homo sapiens with 52 samples.

Results

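HepG2 cells treated for 48 h with iMDK at 10 uM were compared with HepG2 cells given vehicle for the same time. HepG2 is an established hepatoblastoma line that keeps many traits of the fetal liver cell, and iMDK is a small molecule that lowers the growth factor midkine (MDK). The comparison takes 6 of the 52 libraries of the study, chosen by their labels alone: 3 of HepG2 with iMDK at 10 uM and 3 of HepG2 with vehicle. Both groups were seeded and left to attach for 48 h before treatment and grew in the same serum-containing medium; the labels name no other agent or genetic change in either group. Beside them stood 3 libraries of HepG2 with iMDK at 5 uM, and 6 libraries of Huh6, another hepatoblastoma line, with iMDK at 10 uM or vehicle (3 each). A further 4 HepG2 libraries, treated with another inhibitor, PKF118-310, entered the fit for its estimate of spread and are not compared. RNA was captured by poly(A) and made into strand-marking libraries, and the deposited values count the reads of each gene. The labels do not say whether the 3 libraries of a group came from separate cultures, so the spread given here is that between libraries. Because all cells of a dish were lysed together, fewer cells that express a gene and less RNA per cell cannot be told apart.

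Total counts ran from 19779798 to 19977262 in the iMDK libraries and from 18287245 to 19751077 in the vehicle libraries, and 3 counts corresponded to 0.15 to 0.164 CPM, the count scaled to the depth of the library. Genes with at least 1 count numbered 20500 to 20616 with iMDK and 19350 to 19731 with vehicle. Mitochondrially encoded genes took 6.59 to 7.2% of counts with iMDK and 5.55 to 7.45% with vehicle. The liver label held up: the 13 liver identity genes summed to 20300 to 20700 CPM with iMDK and 29200 to 32100 CPM with vehicle. Leukocyte markers summed to 955 to 1030 CPM with iMDK and 1150 to 1300 CPM with vehicle, nearly all of it LYZ, while CD68, TYROBP, FCGR3A and CD3E were at 0. Endothelial and stromal markers summed to 35.0 to 38.0 CPM with iMDK and 37.2 to 40.0 CPM with vehicle, with KDR, PDGFRA and ACTA2 at 0. The part of these markers in the results was not tested. Some genes that most cells use (SDHA, RPL32 and CDK2) are listed at 0 in every library of both lines. Among those listed at 0 in these 6 libraries are IFIT1, IFIT2, IFIT3, OAS2, OAS3, IRF1, TAP1 and TAP2. Nothing is read from such a 0. Other genes, such as IFNAR2, IL10RB and IRF7, are listed with few counts. Whether these have the same source was not tested, so few counts are not read as low expression.

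Cells sense foreign or misplaced nucleic acid through cytosolic sensors such as MDA5 (the product of IFIH1) and LGP2 (DHX58). The sensors switch on type I and type III interferons, which act through a transcription factor complex that holds STAT2 and IRF9. That complex binds the interferon-stimulated response element (ISRE) in promoters of antiviral genes. Liver cells respond well to both interferon types, and hepatoblastoma cells combine a fetal secretory program with a high rate of division. In dividing cells, promoters of many mitotic genes carry the cell cycle genes homology region (CHR), through which they are repressed outside late cell cycle phases.

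Both elements were looked for by their letters. An ISRE core, GAAA followed by any 2 bases and a further GAAA, read on both strands, was sought in the 250 bases before and 50 bases after each gene's start in RefSeq (GRCh38.p14). It was present in 3.65% of all 27305 promoters and in 2.65% of those of the 10853 tested genes that matched the promoter table. Of the antiviral list, 34 of 40 genes matched the table and 23 of them (67.6%) held the core. Of the MHC class I list, 17 of 21 genes matched and 9 (52.9%) held it. The CHR core TTTGAA was present in 15.4% of all promoters and 10.1% of those of tested genes, in 24 of 35 matched mitosis genes (68.6%) and in 1 of 34 matched DNA replication genes (2.94%). Of the NRF2 targets, 6 of 21 matched (28.6%) held the antioxidant element TGACNNNGC, against 13.6% of all promoters and 15.4% of those of tested genes. Of the cholesterol genes, 1 of 25 matched (4.0%) held the sterol element TCACNCCAC, against 1.15% of all and 0.995% of those of tested genes. These list shares are over listed genes that matched, whether or not they were tested or changed. The genes that held the ISRE core include IFIT1, IFIT3, OAS3, TAP1 and TAP2, which are listed at 0 here. A match is a run of letters and not a site shown to be bound. The windows printed here were chosen because they hold a match (RSAD2 and OASL, which also rose, hold none in the same window). Capitals mark the ISRE core or its reverse complement in the first 7 and the CHR core in the last 2.
IFI6, chr1:27672236-27672388, minus strand, a mitochondrial survival protein: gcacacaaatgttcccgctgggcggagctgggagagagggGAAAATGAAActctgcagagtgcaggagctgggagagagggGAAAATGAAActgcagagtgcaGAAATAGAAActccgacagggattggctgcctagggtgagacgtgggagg
DDX60, chr4:168318756-168318880, minus strand, a helicase that aids RNA sensors: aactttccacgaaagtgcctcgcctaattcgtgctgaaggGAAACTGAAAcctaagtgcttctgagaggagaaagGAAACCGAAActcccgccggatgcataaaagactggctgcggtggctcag
HERC5, chr4:88456954-88457094, plus strand, the ligase that attaches ISG15 to proteins: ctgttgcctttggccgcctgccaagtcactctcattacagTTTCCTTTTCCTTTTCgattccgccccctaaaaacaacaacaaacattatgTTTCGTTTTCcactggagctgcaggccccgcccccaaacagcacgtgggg
IFI27, chr14:94110588-94110690, plus strand, a mitochondrial interferon-induced protein: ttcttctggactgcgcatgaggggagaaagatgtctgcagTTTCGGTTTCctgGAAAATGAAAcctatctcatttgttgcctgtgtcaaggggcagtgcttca
ISG15, chr1:1013344-1013439, plus strand, a ubiquitin-like modifier: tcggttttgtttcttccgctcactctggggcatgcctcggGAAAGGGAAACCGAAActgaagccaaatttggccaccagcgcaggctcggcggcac
MX1, chr21:41420529-41420607, plus strand, a GTPase that blocks viral replication: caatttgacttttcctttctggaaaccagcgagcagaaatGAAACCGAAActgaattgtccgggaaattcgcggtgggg
B2M, chr15:44711333-44711428, plus strand, the invariant chain of MHC class I: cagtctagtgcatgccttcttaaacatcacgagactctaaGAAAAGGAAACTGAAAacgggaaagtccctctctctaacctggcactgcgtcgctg
TOP2A, chr17:40418002-40418130, minus strand, the DNA topoisomerase of dividing cells: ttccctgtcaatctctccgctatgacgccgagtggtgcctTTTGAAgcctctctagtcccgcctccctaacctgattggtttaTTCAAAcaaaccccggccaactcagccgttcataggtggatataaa
CCNB2, chr15:59105077-59105162, plus strand, a cyclin of entry into mitosis: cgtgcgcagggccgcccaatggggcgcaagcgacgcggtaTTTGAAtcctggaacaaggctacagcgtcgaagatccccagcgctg

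Treatment changed the transcriptome widely. Of 15451 genes tested, 54.6% passed an adjusted p of 0.05, with 27.3% higher and 27.2% lower, and 7.23% were higher and 4.5% lower by at least 2-fold. The median log2 fold change over all genes tested was 0.0175. The 3 libraries of one group lay wholly apart from the 3 of the other for 58.2% of genes tested. These shares are the background against which every count of list members is to be read. A gene near 0 with vehicle could pass the filter on low counts through treated libraries alone. For such genes only a rise could be seen, and the counts of list members include them.

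Nearly all antiviral effectors tested were higher with iMDK than with vehicle, some of them from 0 or few counts with vehicle. Of 33 antiviral effectors tested, 32 rose and none fell, 29 of them by at least 2-fold, with a median log2 fold change of 3.3. The median was the same with the genes that had no vehicle count set at their lower bound. These counts include 3 members at 0 in a group and others near 0 with vehicle. Such members could pass the filter on low counts through treated libraries alone, which limits what their direction shows. RSAD2, which encodes viperin, an enzyme that makes a chain-terminating nucleotide, had 136, 131 and 125 CPM with iMDK and 0 counts in all 3 vehicle libraries. It was at least 2418-fold higher with iMDK (3 counts allowed over the vehicle group). All 3 iMDK libraries were high and no vehicle library held a read.

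ISG15 had 842, 802 and 746 CPM with iMDK, against 26.5, 25.8 and 26.3 CPM with vehicle, a log2 fold change of 4.93 ± 0.0474 (SE, adjusted p = 1.23e-43). Throughout, brackets hold the log2 fold change with its SE and edgeR's adjusted p, and means are given with their SD (n = 3 each). MX1 had 164, 166 and 155 CPM with iMDK, against 8.48, 6.59 and 6.77 CPM with vehicle (4.47 ± 0.0771, adjusted p = 2.99e-35). Neither gene's groups overlapped, and both genes were already read with vehicle. HERC5, the ligase for ISG15, had 111, 115 and 111 CPM with iMDK, against 0.424, 0.471 and 0.341 CPM with vehicle (8.06 ± 0.107). Its relative HERC6 averaged 26.6 ± 3.3 CPM with iMDK and 1.31 ± 0.301 CPM with vehicle (4.33 ± 0.147). USP18, which removes ISG15 and damps interferon receptors, averaged 31.2 ± 2.71 CPM with iMDK and 13.2 ± 0.727 CPM with vehicle (1.24 ± 0.0847).

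EPSTI1 averaged 13.3 ± 1.06 CPM with iMDK and 0.252 ± 0.109 CPM with vehicle (5.68 ± 0.259). SAMD9, an antiviral factor that restricts poxviruses, averaged 20.3 ± 1.5 CPM with iMDK and 2.09 ± 0.171 CPM with vehicle (3.28 ± 0.134). SLFN5, a member of the schlafen family, averaged 38.6 ± 0.714 CPM with iMDK and 2.61 ± 0.501 CPM with vehicle (3.89 ± 0.105). The membrane protein IFITM3 was the list member that did not pass: it had 1.54, 2.58 and 2.04 CPM with iMDK, against 1.48, 1.1 and 1.65 CPM with vehicle, and the groups overlapped (adjusted p = 0.0836). Without iMDK replicate 1 it passed, at 0.719 (adjusted p = 0.034).

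Sensors rose as well. Of 10 RNA and DNA sensors tested, 8 rose and 1 fell (median 1.28). IFIH1 had 84.5, 85.2 and 79 CPM with iMDK, against 19, 17.9 and 19.6 CPM with vehicle (2.14 ± 0.06, adjusted p = 2.39e-28). DHX58 had 37.2, 36.4 and 32.7 CPM with iMDK, against 5.93, 7.17 and 6.03 CPM with vehicle (2.47 ± 0.0909, adjusted p = 1.89e-24). Every iMDK library of both genes was above every vehicle library. The DNA sensor IFI16 averaged 1.13 ± 0.497 CPM with iMDK and 0.0556 ± 0.0569 CPM with vehicle (4.23 ± 0.698). ZBP1, a sensor of Z-form nucleic acid, was found at 0.298, 0.546 and 0.15 CPM with iMDK and at 0 counts with vehicle, at least 6.14-fold higher. ZBP1 is among the 8 that rose, but it could pass the filter on low counts through treated libraries alone. Only a rise could be seen for it. The member that fell was MAVS, the adaptor through which RNA sensors signal, at 284 ± 5.77 CPM with iMDK and 352 ± 13.5 CPM with vehicle (-0.31 ± 0.0341).

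Interferon genes themselves gave few reads. IFNL1, a type III interferon, had 12, 8 and 16 counts with iMDK and 0, 0 and 0 counts with vehicle, at least 11.1-fold higher (adjusted p = 2.64e-05). At 5 uM it had 4, 11 and 3 counts. With 0 vehicle counts, IFNL1 could pass the filter through treated libraries alone, which limits what its direction shows. IFNB1, a type I interferon, had 2, 1 and 1 counts with iMDK and none with vehicle, too few to be tested. Of the transducers, STAT2 averaged 83.7 ± 1.53 CPM with iMDK and 60.2 ± 6.17 CPM with vehicle (0.47 ± 0.052). IRF9, its partner in that complex, was listed with few reads in both groups. It had 0.596, 0.646 and 0.897 CPM with iMDK and 0.371, 0.366 and 0.114 CPM with vehicle. Its call (1.29 ± 0.545, adjusted p = 0.0429) was lost with DESeq2 (adjusted p = 0.0537), with the replicate number as a block (0.053) and without iMDK replicate 2, iMDK replicate 3 or vehicle replicate 3 (0.0574, 0.142 and 0.179). IRF7 gave too few counts to be tested.

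**Figure D1:**
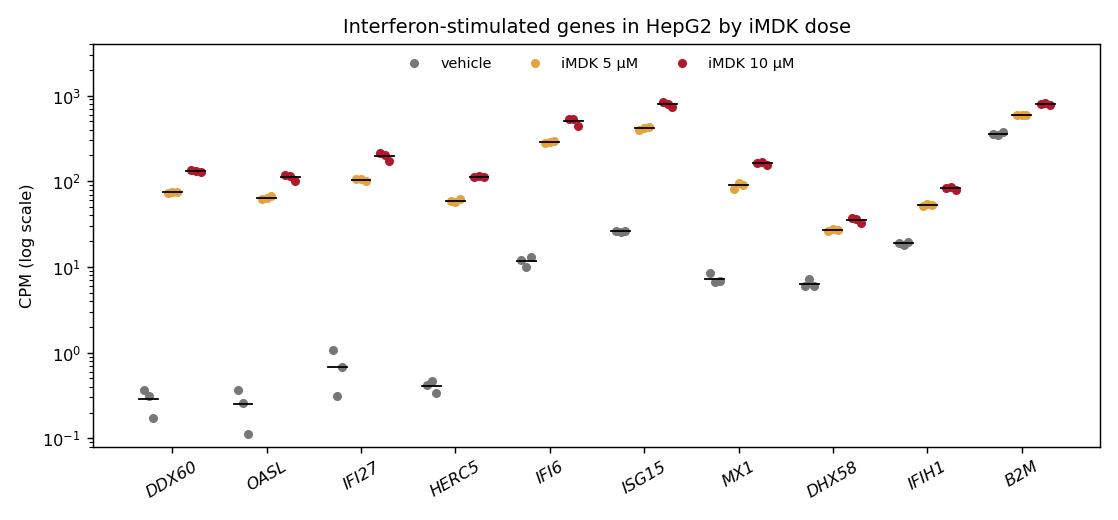
CPM (log scale) of 10 genes of the interferon response in HepG2 with vehicle, 5 uM and 10 uM iMDK; points are libraries (3 per group) and lines are means. For ISG15 the libraries at 10 uM lay between 746 and 842 CPM, and for HERC5 between 111 and 115 CPM, above every 5 uM and vehicle library of the same gene.

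Peptide presentation, which displays internal proteins to T cells, rose in part. Of 18 antigen processing and MHC class I genes tested, 12 rose and 1 fell (median 0.217, with 27.3% of all genes higher). B2M had 801, 814 and 784 CPM with iMDK, against 360, 350 and 372 CPM with vehicle (1.15 ± 0.0302). HLA-F averaged 10.4 ± 1.09 CPM with iMDK and 6.59 ± 0.84 CPM with vehicle (0.65 ± 0.121); HLA genes share sequence, so reads may be split between them. The loading chaperone gene CALR was the member that fell, to 1431 CPM on average with iMDK, against 1782 CPM with vehicle. Among surface ligands, ULBP1, which natural killer cells recognise through NKG2D, averaged 1.36 ± 0.118 CPM with iMDK and 0.235 ± 0.0686 CPM with vehicle (2.51 ± 0.412). The T cell costimulator TNFSF9 averaged 15.6 ± 0.147 CPM with iMDK and 4.02 ± 0.572 CPM with vehicle (1.96 ± 0.111). CD274, which encodes PD-L1, was at 0.0994, 0.397 and 0.0499 CPM with iMDK and 0, 0 and 0.0569 CPM with vehicle, too low to be tested.

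Most cytokines and stress hormones rose. Of 18 cytokines and growth factors tested, 16 rose and none fell (median 1.37), and of 13 stress hormones and growth arrest genes all 13 rose (median 1.11). Of 8 chemokines tested, 4 rose, 3 of them by at least 2-fold, and 1 fell (median 0.0477). CXCL8 rose by 2.33 on the log2 scale (adjusted p = 7.8e-27). The one that fell was CX3CL1, a membrane-bound chemokine, at 97.4 ± 4.27 CPM with iMDK and 134 ± 3.16 CPM with vehicle. In a fit to the 6 libraries of both groups alone, 2 chemokines rose. IL1A, an alarm cytokine, averaged 1.53 ± 0.204 CPM with iMDK and 0.287 ± 0.119 CPM with vehicle (2.38 ± 0.421). TNFSF15, a ligand of the TNF family, averaged 0.763 ± 0.0581 CPM with iMDK and 0.149 ± 0.175 CPM with vehicle (2.35 ± 0.537). GDF15, a stress hormone that suppresses appetite, had 1957, 1929 and 1925 CPM with iMDK, against 617, 664 and 624 CPM with vehicle (1.61 ± 0.0301, adjusted p = 4.53e-34). ADM2, a vasodilator peptide, averaged 38.2 ± 1.27 CPM with iMDK and 13.6 ± 1.09 CPM with vehicle (1.49 ± 0.0697). Of 16 NF-kappaB targets and feedback genes, 11 rose and 2 fell, with 27.3% of all genes higher and 27.2% lower. The subunit RELB had 32.5, 32.9 and 31.9 CPM with iMDK, against 14.7, 12.6 and 14.3 CPM with vehicle (1.23 ± 0.0738). The inhibitor TNFAIP3 averaged 75.2 ± 1.14 CPM with iMDK and 101 ± 4.16 CPM with vehicle (-0.43 ± 0.0425).

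Immediate early transcription factors rose, 18 of 20 tested with none lower (median 1.23). KLF4, a factor of growth arrest and differentiation, had 35.1, 36 and 32.5 CPM with iMDK, against 0.742, 1.36 and 0.91 CPM with vehicle (5.09 ± 0.127, adjusted p = 6e-30). Its relative KLF2 averaged 2.47 ± 0.395 CPM with iMDK and 0.141 ± 0.107 CPM with vehicle (4.04 ± 0.423). EGR1, induced by growth factors and stress, had 111, 114 and 104 CPM with iMDK, against 17.5, 16 and 14.7 CPM with vehicle (2.77 ± 0.06). For all of these genes the groups lay apart. MYC, at 183, 174 and 184 CPM with iMDK and 178, 174 and 174 CPM with vehicle, did not pass (0.04 ± 0.034, adjusted p = 0.296).

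Among the genes that rose most, several belong to no list. KRT17, a keratin of stressed and basal epithelium, had 91.5, 95 and 84 CPM with iMDK, against 0.371, 0.576 and 0.455 CPM with vehicle (7.57 ± 0.116, adjusted p = 6.02e-37). CATSPERG, an accessory subunit of the sperm calcium channel, averaged 60.5 ± 2.58 CPM with iMDK and 1.86 ± 0.346 CPM with vehicle (5.02 ± 0.103). KLHDC7B, a kelch domain gene, averaged 122 ± 8.91 CPM with iMDK and 4.01 ± 0.686 CPM with vehicle (4.93 ± 0.0833). LCN2, an iron-carrier binding protein of the innate response, averaged 16.2 ± 1.36 CPM with iMDK and 1.25 ± 0.456 CPM with vehicle (3.68 ± 0.175). MEI1, known from meiosis, averaged 18.1 ± 1.3 CPM with iMDK and 1.1 ± 0.234 CPM with vehicle (4.03 ± 0.148). The keratin KRT19, which does belong to a list, rose by less than 2-fold. It was expressed in both groups and averaged 797 ± 23 CPM with iMDK and 453 ± 20.6 CPM with vehicle (0.82 ± 0.0312).

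**Figure D2:**
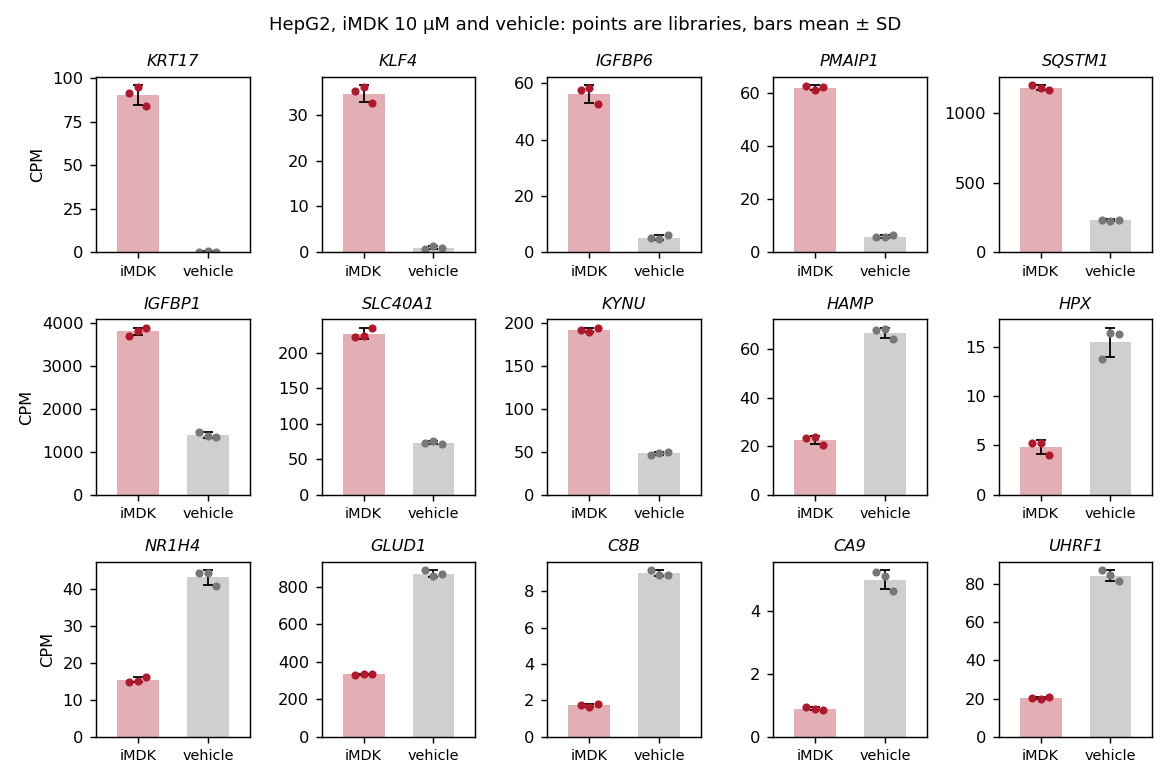
CPM of 15 genes in HepG2 with iMDK at 10 uM (left of each panel) and vehicle (right); points are the 3 libraries and bars are mean ± SD. KRT17 stood at 84 to 95 CPM with iMDK and below 1 CPM with vehicle, whereas HAMP stood at 20.5 to 23.6 CPM with iMDK and 64.2 to 68.1 CPM with vehicle.

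Genes of division fell as blocks. All 35 DNA replication genes fell (median -1.49), as did all 41 mitosis and spindle genes (-1.48) and all 20 genes of homologous recombination and Fanconi repair (-1.5), with 27.2% of all genes lower. GINS2, a subunit of the replicative helicase, had 9.29, 12.7 and 9.27 CPM with iMDK, against 38, 38.4 and 37.8 CPM with vehicle (-1.87 ± 0.0874). CENPF, a kinetochore protein, had 48.8, 50.7 and 47 CPM with iMDK, against 190, 171 and 170 CPM with vehicle (-1.86 ± 0.0517). BRIP1, the helicase partner of BRCA1, had 12.5, 13.2 and 11.2 CPM with iMDK, against 42.5, 45 and 42.4 CPM with vehicle (-1.81 ± 0.0762). In each case the highest iMDK library was below the lowest vehicle library.

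Of 13 cyclins, kinases and E2F factors of the G1/S step, 11 fell and 1 rose. The transcription factor E2F2 averaged 7.97 ± 0.285 CPM with iMDK and 31.9 ± 0.967 CPM with vehicle (-2.00 ± 0.0843), and SKP2, which marks CDK inhibitors for destruction, averaged 28.6 ± 2.37 CPM with iMDK and 90.2 ± 1.33 CPM with vehicle (-1.66 ± 0.0544). CCND1, the cyclin of growth factor signals, fell little, to 496 ± 9.72 CPM with iMDK, against 534 ± 10.9 CPM with vehicle (-0.11 ± 0.0299, adjusted p = 0.00228). Of 17 DNA methylation and Polycomb genes, 14 fell and none rose (median -0.466). Without iMDK replicate 2 or vehicle replicate 2, 1 of them rose. The maintenance methyltransferase DNMT1 averaged 104 ± 3.57 CPM with iMDK and 208 ± 10.2 CPM with vehicle (adjusted p = 1.13e-23), its partner helicase HELLS averaged 8.39 ± 0.875 CPM with iMDK and 32.5 ± 0.588 CPM with vehicle (-1.95 ± 0.0876), and the Polycomb methyltransferase EZH2 averaged 31.1 ± 2.15 CPM with iMDK and 65 ± 1.58 CPM with vehicle (-1.06 ± 0.0561). The nuclear lamina gene LMNB1 averaged 64.1 ± 0.803 CPM with iMDK and 183 ± 2.53 CPM with vehicle (-1.52 ± 0.0411).

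Of 24 BCL2 family and death genes tested, 13 rose and 4 fell, with 27.3% of all genes higher and 27.2% lower. PMAIP1, which encodes the pro-death BH3-only protein NOXA, had 62.7, 61.1 and 62.1 CPM with iMDK, against 5.72, 5.6 and 6.54 CPM with vehicle (3.38 ± 0.0749, adjusted p = 1.21e-31). HRK, another pro-death BH3-only gene, had 6.96, 5.26 and 5.78 CPM with iMDK, against 0.53, 0.209 and 0.114 CPM with vehicle (4.35 ± 0.289). The groups of both genes lay apart. The survival gene BCL2A1 averaged 0.531 ± 0.0762 CPM with iMDK and 0.0525 ± 0.0523 CPM with vehicle (3.15 ± 0.75). CASP1, the inflammasome protease, averaged 0.464 ± 0.126 CPM with iMDK and 1.27 ± 0.289 CPM with vehicle (-1.45 ± 0.48).

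Of 25 p53 targets 16 were higher and 7 lower, against 27.3% of all genes higher and 27.2% lower. The count of lower members was near the share of all genes. PLK3, a stress kinase, averaged 39.8 ± 2.44 CPM with iMDK and 14.2 ± 0.261 CPM with vehicle (1.49 ± 0.0671), and SESN2, an antioxidant and mTORC1 inhibitor, averaged 140 ± 3.12 CPM with iMDK and 55.7 ± 2.05 CPM with vehicle (1.32 ± 0.0394). The DNA repair gene DDB2 averaged 61.1 ± 1.27 CPM with iMDK and 86.1 ± 1.36 CPM with vehicle (-0.49 ± 0.0447). The cyclin CCNG1 averaged 206 ± 2.08 CPM with iMDK and 288 ± 7.56 CPM with vehicle (-0.49 ± 0.034), and ZMAT3 fell by 0.53 on the log2 scale.

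Of 26 NRF2 targets 20 rose and 1 fell (median 0.477), and of 24 lysosome and autophagy genes 18 rose and 2 fell (median 0.542). Without vehicle replicate 2, 2 NRF2 targets fell. SQSTM1, the autophagy receptor p62 that also releases NRF2, had 1196, 1181 and 1166 CPM with iMDK, against 233, 222 and 233 CPM with vehicle (2.37 ± 0.031, adjusted p = 4.21e-39). GABARAPL1, a marker protein of the autophagosome, averaged 93.7 ± 2.98 CPM with iMDK and 25.6 ± 1.7 CPM with vehicle (1.87 ± 0.0512). The protease CTSL averaged 232 ± 4.59 CPM with iMDK and 75.3 ± 3.12 CPM with vehicle (1.62 ± 0.0387), while TFEB, a transcription factor of lysosomal genes, averaged 14.8 ± 0.604 CPM with iMDK and 23.2 ± 1.2 CPM with vehicle (-0.65 ± 0.0766).

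OSGIN1, an NRF2 target, averaged 131 ± 4.17 CPM with iMDK and 52.8 ± 2.12 CPM with vehicle (1.31 ± 0.0522). HMOX1, which breaks down haem, had 95.3, 96.8 and 90.2 CPM with iMDK, against 93.5, 86.5 and 95 CPM with vehicle; the groups overlapped and it did not pass (0.04 ± 0.0503, adjusted p = 0.54). Of 29 genes of the ATF4 amino acid response 18 rose and 5 fell. PPP1R15A, which restores translation after stress, averaged 205 ± 3.92 CPM with iMDK and 47.8 ± 0.612 CPM with vehicle (2.10 ± 0.0374), while PHGDH, the first enzyme of serine synthesis, averaged 101 ± 5.24 CPM with iMDK and 161 ± 6.38 CPM with vehicle (-0.68 ± 0.0395). Of 28 genes of the unfolded protein response 18 rose and 8 fell, with 27.3% of all genes higher and 27.2% lower. The cochaperone DNAJB9 averaged 109 ± 3.39 CPM with iMDK and 41 ± 0.789 CPM with vehicle (1.41 ± 0.0452). Of 14 cytosolic heat shock genes 9 rose and 3 fell (median 0.139), and the member with the largest rise, the small chaperone HSPB8, averaged 32.9 ± 1.56 CPM with iMDK and 2.57 ± 0.503 CPM with vehicle (3.67 ± 0.106).

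Cholesterol genes rose by small amounts, 23 of 30 with 3 lower (median 0.38). MVD, an enzyme of the mevalonate steps, averaged 222 ± 10.5 CPM with iMDK and 116 ± 5.7 CPM with vehicle (0.94 ± 0.0391). The cholesterol exporter ABCA1 averaged 88.5 ± 2.36 CPM with iMDK and 134 ± 8.88 CPM with vehicle (-0.60 ± 0.0462). In fat synthesis, LPIN1, a phosphatidate phosphatase, averaged 115 ± 6.16 CPM with iMDK and 42 ± 3.02 CPM with vehicle (1.46 ± 0.0498), and GPAM, the first acyltransferase of triglyceride synthesis, averaged 123 ± 1.94 CPM with iMDK and 289 ± 3.91 CPM with vehicle (-1.23 ± 0.0359).

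**Figure D3:**
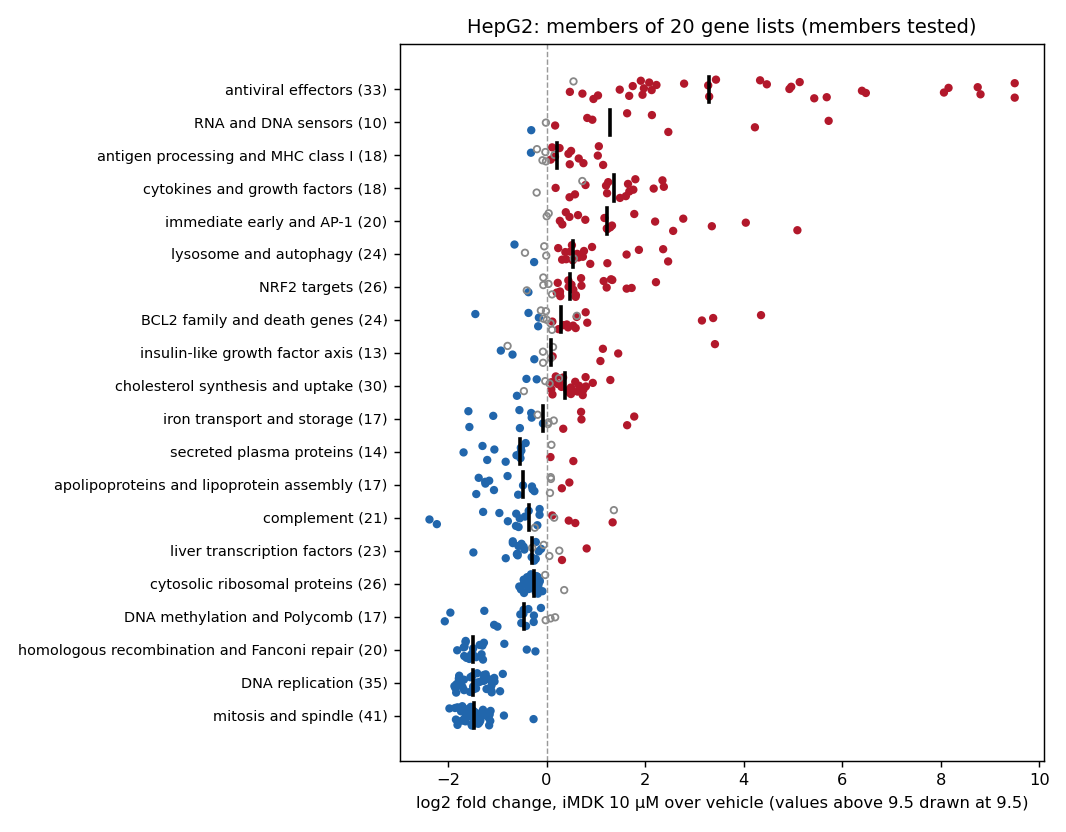
Log2 fold change, iMDK 10 uM over vehicle, of every tested member of 20 gene lists (members tested in brackets); filled points passed the adjusted p of 0.05, open points did not, black lines are list medians and the dashed line is the median of all genes. Antiviral effectors (median 3.3) stood at the right, and the replication (-1.49) and mitosis (-1.48) lists at the left.

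In most lists of liver secretion and identity more genes fell than rose. Lower were 11 of 14 secreted plasma proteins (2 higher), 12 of 17 apolipoprotein and lipoprotein assembly genes (2 higher), 14 of 21 complement genes (4 higher) and 17 of 23 liver transcription factors (2 higher). Of 15 bile acid genes 8 fell and 5 rose. The exception was the list of xenobiotic cytochromes and conjugation, where 7 of 21 genes fell and 8 rose (median -0.17). Of all genes, 27.2% were lower and 27.3% higher. Leaving out 1 library moved some counts of higher members: 1 plasma protein without iMDK replicate 1 or vehicle replicate 2, 2 complement genes without iMDK replicate 2 or vehicle replicate 3, and 4 apolipoprotein genes without vehicle replicate 1. HPX, which carries haem, had 5.22, 5.21 and 3.99 CPM with iMDK, against 13.8, 16.4 and 16.3 CPM with vehicle (-1.68 ± 0.129). C8B, a chain of the membrane attack complex, had 1.74, 1.64 and 1.79 CPM with iMDK, against 9.17, 8.9 and 8.87 CPM with vehicle (-2.38 ± 0.185, adjusted p = 3.33e-14). The hepatic lipase LIPC averaged 11.4 ± 0.705 CPM with iMDK and 30.7 ± 1.81 CPM with vehicle (-1.43 ± 0.0776), and MTTP, which loads lipid on nascent particles, averaged 7.11 ± 0.689 CPM with iMDK and 16.9 ± 0.159 CPM with vehicle (-1.25 ± 0.109).

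Some liver genes rose. The thyroxine carrier TTR had 161, 150 and 175 CPM with iMDK, against 111, 108 and 114 CPM with vehicle (0.54 ± 0.0485), and APOA2, a protein of high density lipoprotein, averaged 2755 CPM with iMDK and 1999 CPM with vehicle (0.46 ± 0.028). NR1H4, the bile acid receptor FXR, had 14.9, 15.1 and 16.2 CPM with iMDK, against 44.3, 44.1 and 40.7 CPM with vehicle (-1.49 ± 0.077). HNF4A, the central liver factor, averaged 352 ± 7.76 CPM with iMDK and 434 ± 10.6 CPM with vehicle (-0.30 ± 0.0308). AKR1D1, an enzyme of bile acid synthesis, averaged 14.1 ± 0.731 CPM with iMDK and 45.3 ± 1.03 CPM with vehicle (-1.68 ± 0.0773).

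Amino acid and nitrogen enzymes fell more often than they rose: 7 of 11 urea cycle and ammonia genes fell and 3 rose (median -0.448), and 8 of 16 amino acid catabolism genes fell and 3 rose (median -0.376). AGXT, which detoxifies glyoxylate and is in neither list, had 11.6, 12.1 and 13.1 CPM with iMDK, against 59, 58.4 and 53.8 CPM with vehicle (-2.22 ± 0.0683, adjusted p = 5.71e-27). GLUD1, glutamate dehydrogenase, had 329, 336 and 333 CPM with iMDK, against 889, 854 and 867 CPM with vehicle (-1.39 ± 0.0297). KYNU, which acts in the tryptophan to NAD route, had 192, 189 and 194 CPM with iMDK, against 46.6, 48.4 and 50 CPM with vehicle (1.99 ± 0.0421, adjusted p = 2.9e-32). NAGS, which makes the activator of the urea cycle, averaged 15.4 ± 0.373 CPM with iMDK and 6.25 ± 0.48 CPM with vehicle (1.30 ± 0.0938).

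Iron handling genes moved both ways, with 5 of 17 higher and 8 lower, against 27.3% of all genes higher and 27.2% lower. The hormone HAMP (hepcidin), which degrades the iron exporter, had 23.4, 23.6 and 20.5 CPM with iMDK, against 67.7, 68.1 and 64.2 CPM with vehicle (-1.57 ± 0.0647, adjusted p = 8.39e-23). The exporter itself, SLC40A1 (ferroportin), had 221, 224 and 235 CPM with iMDK, against 73.1, 74.8 and 71 CPM with vehicle (1.64 ± 0.0366, adjusted p = 1.66e-31). BMP6, the ligand that induces hepcidin, averaged 12.6 ± 0.912 CPM with iMDK and 3.69 ± 1.05 CPM with vehicle (1.78 ± 0.122). The iron sensor TFR2 averaged 23.3 ± 1.21 CPM with iMDK and 49.2 ± 1.91 CPM with vehicle (-1.08 ± 0.062), and the SMAD target ID1 fell by 0.55 on the log2 scale. The ferritin chains rose, FTL by 0.71 ± 0.0279 and FTH1 by 0.70 ± 0.036.

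In the insulin-like growth factor axis 5 of 13 genes rose and 3 fell, with 27.3% of all genes higher and 27.2% lower. IGFBP1 had 3718, 3832 and 3889 CPM with iMDK, against 1466, 1372 and 1336 CPM with vehicle (1.45 ± 0.0352). IGFBP6, which prefers IGF2, had 57.4, 58.3 and 52.5 CPM with iMDK, against 4.93, 4.76 and 6.08 CPM with vehicle (3.42 ± 0.0873, adjusted p = 1.22e-29). IGFBP2 (1.09 ± 0.0772) and IGFBP3 (1.14 ± 0.109) rose as well, and IGF2 averaged 977 ± 68.8 CPM with iMDK and 1858 CPM with vehicle (-0.93 ± 0.0394). The receptors IGF1R (-0.07, adjusted p = 0.309) and INSR (-0.07, adjusted p = 0.142) did not pass. Without vehicle replicate 2, INSR passed (-0.11, adjusted p = 0.0319).

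Of other groups, 24 of 26 cytosolic ribosomal proteins fell and none rose (median -0.261). In the hypoxia and glycolysis list 8 of 27 rose, near the 27.3% of all genes higher, and 14 fell, against 27.2% of all genes lower. The hexokinase HK1 averaged 10.2 ± 0.748 CPM with iMDK and 2.09 ± 0.162 CPM with vehicle (2.29 ± 0.136). The carbonic anhydrase CA9 had 0.944, 0.894 and 0.848 CPM with iMDK, against 5.25, 5.13 and 4.66 CPM with vehicle (-2.48 ± 0.251). The metal-binding MT2A averaged 310 ± 5.68 CPM with iMDK and 98.1 ± 4.5 CPM with vehicle (1.66 ± 0.0349). MDK, which the compound was made to lower, had 239, 244 and 230 CPM with iMDK, against 299, 281 and 301 CPM with vehicle (-0.31 ± 0.0332, adjusted p = 2.29e-10), and the related growth factor gene PTN had 0 counts in both groups.

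Some further genes of liver identity, Wnt signalling and stress were followed. ALB, the main plasma protein, fell to 3060, 3107 and 2898 CPM with iMDK, against 6605, 6036 and 6245 CPM with vehicle (-1.06 ± 0.0358). AFP, its fetal counterpart, fell by 0.98 on the log2 scale and the oncofetal surface protein GPC3 by 0.30. CTNNB1, which encodes beta-catenin and carries the driver mutations of hepatoblastoma, averaged 604 ± 10.1 CPM with iMDK and 753 ± 4.01 CPM with vehicle (-0.32 ± 0.0279). Of 17 Wnt/beta-catenin targets tested, 12 fell and 2 rose (median -0.514), among those that fell AXIN2 (-0.40 ± 0.04) and LGR5 (-0.70 ± 0.0362). The count of targets that rose was 1 with DESeq2, without the filter on low counts, with the replicate number as a block, and without iMDK replicate 1 or 2 or vehicle replicate 1 or 2. The CDK inhibitor CDKN1A averaged 435 ± 12.5 CPM with iMDK and 183 ± 3.31 CPM with vehicle (1.25 ± 0.0314), the thioredoxin reductase TXNRD1 rose by 1.73 ± 0.0305 and ATF4 rose by 0.30 ± 0.0297. DDIT3, the stress factor CHOP, was listed with few reads in both groups and did not pass (0.78 ± 0.546, adjusted p = 0.232). The RNA sensor DDX58 had 2 counts in 1 iMDK library and none in any other library of both lines, and TP53I3 is listed at 0. As for the other genes listed at 0, nothing is read from these values.

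The comparison of 10 uM with 5 uM asked which changes went on with dose. Of the genes tested, 13.4% passed, with 6.5% higher and 6.94% lower at 10 uM than at 5 uM. Of the 33 antiviral effectors 30 were higher and none lower (median 0.774). RSAD2 had 136, 131 and 125 CPM at 10 uM and 50.9, 54.4 and 53.6 CPM at 5 uM, a difference of 1.30 ± 0.0587 (adjusted p = 1.66e-18), and HERC5 averaged 112 ± 2.36 CPM at 10 uM and 59.5 ± 2.6 CPM at 5 uM (0.92). Higher at 10 uM were also PMAIP1 (0.89), HSPB8 (0.89) and KLF4 (0.91), as were 19 of 26 NRF2 targets. Replication genes were lower for 23 of 35, with a median of -0.245. Lower at 10 uM were AGXT (-0.87), ODAM (-0.79), VAV3 (-0.77) and NR1H4 (-0.73).

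For other genes no difference between the doses was detected. ADM2 averaged 38.2 ± 1.27 CPM at 10 uM and 36.1 ± 0.464 CPM at 5 uM (0.08, adjusted p = 0.432), and NAGS averaged 15.4 ± 0.373 CPM at 10 uM and 14.5 ± 0.954 CPM at 5 uM (0.09, adjusted p = 0.542). DNMT1 averaged 104 ± 3.57 CPM at 10 uM and 110 ± 3.64 CPM at 5 uM (-0.08, adjusted p = 0.214). Some cholesterol genes were lower at the higher dose: HMGCS1, of the mevalonate entry step, averaged 180 ± 2.37 CPM with vehicle, 376 ± 20.3 CPM at 5 uM and 312 ± 0.543 CPM at 10 uM (-0.27 for 10 uM against 5 uM, adjusted p = 2.83e-07), and 11 of 30 cholesterol genes were lower and 2 higher at 10 uM than at 5 uM.

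The response to 10 uM was set against that of Huh6 by testing the difference of the 2 log2 fold changes, HepG2 minus Huh6. Of 15414 genes, 41.7% passed, and 21% had a more positive and 20.7% a more negative response in HepG2. Of 32 antiviral effectors tested, 27 were more positive in HepG2 and none more negative. Of them, 22 had vehicle counts in HepG2 and at least 0.5 CPM in a Huh6 group. Others could pass the filter through HepG2 with iMDK alone, which limits what their direction shows. The median response in Huh6 was 0.0461 and takes in members with few reads there. IFI6 averaged 1.14 CPM with iMDK and 1.54 CPM with vehicle in Huh6 (difference 5.88 ± 0.331). ISG15 rose in both lines, to 31.7 CPM with iMDK against 12.5 CPM with vehicle in Huh6, and rose more in HepG2 (3.60 ± 0.0897). All 35 replication genes were more negative in HepG2 (median difference -1.14), while 26 of 31 cholesterol genes were more positive and none more negative. The liver secretion lists fell in Huh6 too. Of 14 secreted plasma proteins 10 were more positive in HepG2 and none more negative, with a median response of -1.34 in Huh6. For 20 complement genes these were 11 and 1 (-0.829), and for 17 apolipoprotein genes 8 and 2 (-0.85).

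NRF2 targets went the other way, with 15 of 27 more negative and 5 more positive in HepG2. HMOX1 averaged 450 CPM with iMDK and 200 CPM with vehicle in Huh6 (difference -1.12 ± 0.0505). The aldo-keto reductase AKR1B10 averaged 32.5 CPM with iMDK and 0.548 CPM with vehicle in Huh6, and its response was smaller in HepG2 (-4.52 ± 0.17), where it averaged 256 CPM with iMDK and 102 CPM with vehicle. The stress factors SQSTM1 (0.08 ± 0.0401, adjusted p = 0.0996) and ATF3 (-0.01 ± 0.0765, adjusted p = 0.953) did not pass the test of a difference between the lines.

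**Figure D4:**
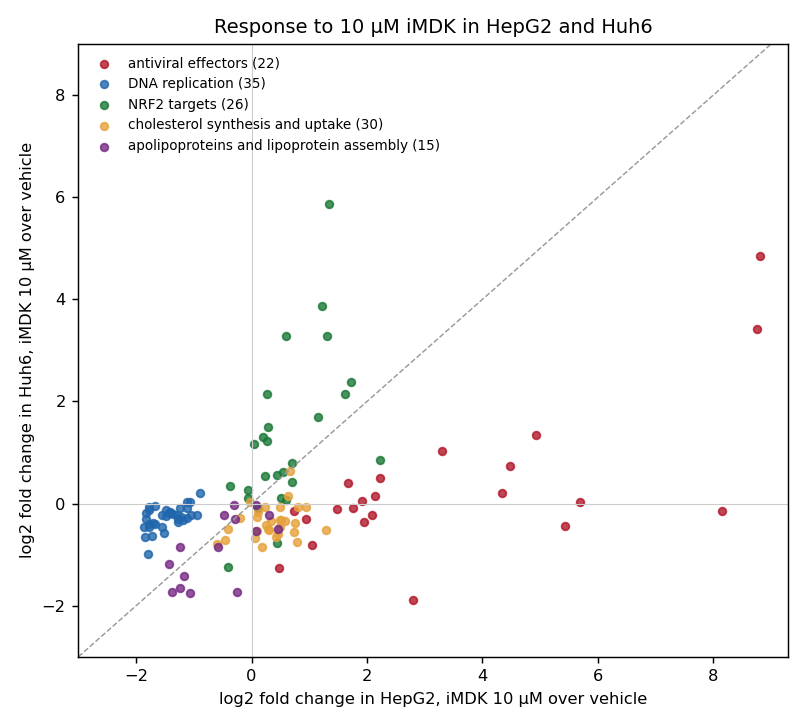
Log2 fold change with 10 uM iMDK over vehicle in HepG2 (x axis) and in Huh6 (y axis) for members of 5 gene lists that had vehicle counts in HepG2 and at least 0.5 CPM in a Huh6 group; the dashed line marks equal responses and brackets give genes drawn. Of the antiviral effectors 22 are drawn, to the right of the dashed line, and the 35 replication genes lie left of the dashed line.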

How the data were processed

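Values were raw read counts per gene, deposited by the authors for 31 libraries of tumour lines with none left unused (0 per-sample columns). Per the submitters' processing notes, STAR 2.7.3a, SAMtools 1.16.1, featureCounts and edgeR 3.36 were used with GRCh38. The sources used here do not name the featureCounts version, the annotation release or the strand setting, so overlapping and antisense genes are uncertain. Counts were analysed in R 4.3.3 with edgeR 4.0.16 (limma 3.58.1): TMM scaling, filterByExpr by group, a quasi-likelihood test and Benjamini-Hochberg adjustment over all genes tested, at 0.05. The HepG2 comparisons came from 1 fit to 13 HepG2 libraries, of which 4 had been treated with PKF118-310 and served only to estimate the spread and, with the others, the scaling and filter. The line difference was an interaction term in a fit to 12 libraries. CPM are TMM-scaled, and the SE of a log2 fold change is its size divided by the root of the F statistic, which can understate the error for genes near 0 in a group. A fold against a group at 0 is a bound with 3 counts over that group. DESeq2 1.42.0, RLE size factors, no filter on low counts, the 6 libraries of both groups alone, the replicate number as a block and leaving out each library were tried. P-values measure the spread between libraries, which may be technical. Genes were named by a rule: the 15 genes per direction with the largest change among passing genes with a mean log2 CPM of at least 2 and groups that do not overlap, up to 5 passing members per direction of each list, list members that did not pass, and a fixed set given always. For dose and line, these genes and the 8 highest and 8 lowest. The genes described are a selection from it, made after their values were seen. Members and lists were chosen with earlier results of these data known. Gene names and positions came from GENCODE, and promoter sequences from RefSeq (GRCh38.p14). The tests were tried on simulated data. Some genes set out by the naming rule are not reported here.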

Additional observations from a re-analysis of the deposited data

Results flagged for a closer look

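The responses of 23 genes to 10 uM iMDK differed between HepG2 and Huh6 by the interaction term (edgeR quasi-likelihood test, Benjamini-Hochberg adjusted). Of all genes tested, 41.7% passed that test. The 23 were kept because they passed, and some were named as the highest or lowest of this same test. Their passing is therefore no further support. The values are log2 differences, HepG2 minus Huh6. More positive in HepG2 were the antiviral genes IFI6 (5.88), EPSTI1 (5.66) and ISG15 (3.6), the factors KLF4 (4.71) and SP8 (4.44), and KLHDC7B (4.93), CATSPERG (4.54), TUSC3 (5.93) and AGR2 (4.65). Among metabolic and secreted genes the differences were 1.55 for HMGCS1, 0.976 for APOA2, 1.39 for TTR, 1.5 for IGFBP1 and 2.82 for KYNU. More negative in HepG2 were the aldo-keto reductases AKR1B10 (-4.52), AKR1C1 (-2.63) and AKR1C2 (-2.67), whose near-identical copies may share reads. The same held for TBL1X (-3.53), PPP2R2C (-2.98), TAGLN (-3.09), CPLX2 (-2.48), HMOX1 (-1.12) and TOP2A (-1.11). AGR2 averaged 65.4 CPM with iMDK and 174 CPM with vehicle in Huh6, whereas EPSTI1 averaged 29.6 CPM with iMDK and 28.8 CPM with vehicle in Huh6.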

How the results depend on the processing

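With the replicate number as a block, 4191 genes were higher and 4188 lower with iMDK at 10 uM than with vehicle, against 4222 and 4207 without it. The block gave 1002 higher and 1063 lower genes for 10 uM against 5 uM, and 3187 more positive and 3143 more negative responses in HepG2 than in Huh6. Same-numbered iMDK and vehicle libraries did not deviate together (correlations -0.024, -0.0223 and -0.0029), so the numbers were not taken to pair them. Leaving out each library in turn gave 3907 to 3955 higher and 3933 to 4017 lower genes against vehicle, 755 to 932 and 813 to 943 against 5 uM, and 2917 to 3074 and 3096 to 3245 between the lines. All 76 recomputed counts of the comparisons stayed within 1.5 times the reported ones, and the median of all genes moved by at most 0.02. Of the named genes' values, 44 lost and 2 gained their call, and of the list counts 39 moved by over 1.5 times. Signs turned in 8 values, none passing the test, when 1 library was left out. TNFRSF14 for 10 uM against 5 uM then ran from -0.0305 to 0.0446 (0.0053, 0.00751 and 0.0446 turned), ERAP1 from -0.123 to 0.00599, IGF1R from -0.129 to 0.0231, HMOX1 from -0.000766 to 0.0685 and the line difference of ATF3 from -0.0564 to 0.00811 (0.00811 and 0.00105 turned). The cause was not tested. Genes near the floor of 0.15 to 0.164 CPM had few counts, which limits what these libraries can show for the interferon genes.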
